A study of Mus musculus with 6 samples.

Results

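The genes described here are 10 imprinted genes that have been linked to the quiescence of hematopoietic stem cells (HSCs): *H19*, *Igf2*, *Igf2r*, *Meg3*, *Rian*, *Dlk1*, *Cdkn1c*, *Grb10*, *Peg3* and *Ndn*. They were taken by gene name from the 54532 genes of the deposited expression table, and all 10 were present. An imprinted gene is transcribed mainly or wholly from the copy inherited from 1 parent, under the control of methylation set in the germ line, and such genes lie in clusters that share a control region. Many of them act on growth: *Igf2* encodes a growth factor, *Igf2r* a receptor that removes it, and *Cdkn1c* (p57) an inhibitor of cyclin-dependent kinases that holds cells out of the cell cycle. In bone marrow (BM), p57 and the *H19*-*Igf2* locus are known for keeping long-term HSCs out of cycle. The *Dlk1*-*Meg3* locus has been linked to long-term HSCs too.

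Expression was measured by RNA-seq of LSK cells, which are lineage-negative, positive for Sca1 and c-Kit, and include the HSCs and early progenitors of the BM. The cKO group came from C57BL/6 mice with floxed *Myh9* on both alleles (Myh9 fl/fl) and the Mx1-cre transgene, and the control group (CTRL) from littermates with no cre. Both groups received poly I:C at 5 mg/kg, in 2 doses by the sample labels (the study's methods give another number of doses), and 100000 LSK cells were sorted 4 days after the first injection from mice genotyped at 4 to 5 weeks. Cre is driven by the interferon-responsive *Mx1* promoter, which is not limited to blood cells, and the floxed part is exon 1 of *Myh9*. The mice are inbred and the deposited values sum both alleles, so no value below says which parental copy was transcribed.

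Each group had 3 libraries, with 17571544 to 19894562 reads on genes in each. Values are FPKM, that is fragments scaled by the length of the gene and the depth of the library, and the whole reads behind each value were recovered from them. The study describes the libraries as independent sets of LSK cells. The number of mice behind each is not given, so p-values measure the spread between these libraries. The Pearson correlation of log2 values was 0.991 to 0.993 between libraries of 1 group and 0.974 to 0.977 between groups. *Myh9*, the targeted gene, was 22.5 ± 0.495 FPKM (SD, n = 3) in CTRL and 18.7 ± 1.18 FPKM in cKO LSKs, lower in all 3 cKO libraries (log2 change -0.26, limma adjusted p = 0.00642). The mean dropped by 17.1%, so most of the *Myh9* signal was still present in the libraries labelled cKO. The table gives 1 value for the whole gene and none for exon 1 alone.

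Of the 10 genes, 1 was expressed, with its mean over the 6 libraries at 1 FPKM or more, 7 were low (at least 3 reads in every library of a group) and 2 were at the floor. *Grb10*, an adaptor protein that binds and restrains the insulin and IGF1 receptors, was the expressed gene and held 70.8% of the 3770 reads of all members. In CTRL LSKs it was followed, per length, by *Cdkn1c* (0.714 ± 0.156 FPKM, n = 3), *Igf2r* (0.379 ± 0.0431 FPKM), *Ndn* (0.253 ± 0.0117 FPKM) and *Dlk1* (0.107 ± 0.0424 FPKM). From *Grb10* down to *Dlk1*, each gene had all its CTRL libraries above those of the next. From *Dlk1* on, *H19*, *Peg3*, *Rian*, *Meg3* and *Igf2* followed in falling order of the mean, each overlapping with its neighbour. In cKO LSKs, *Cdkn1c* and *Igf2r* overlapped with each other, as did *Ndn* and *Dlk1*, and *Meg3* had moved to the sixth place. Without overlap in cKO LSKs, *Dlk1* lay above *Meg3*, *Rian* above *Peg3* and *Peg3* above *Igf2*. The order of neighbours from *Dlk1* on in CTRL LSKs, and from *Meg3* to *Rian* in cKO LSKs, is therefore not resolved by 3 libraries a group.

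**Figure D1:**
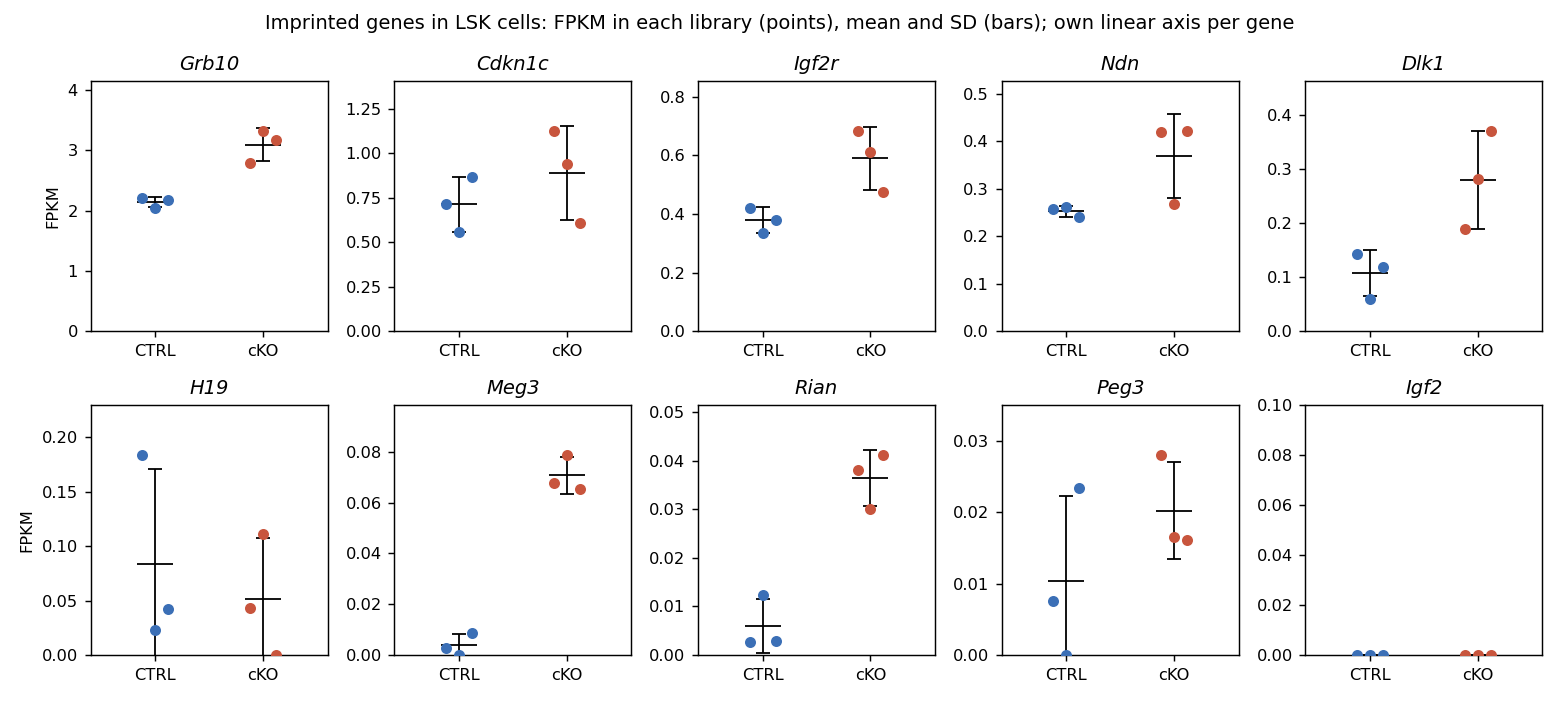
FPKM of the 10 imprinted genes in each of the 3 CTRL and 3 cKO libraries (points), with the group mean and SD (bars, cut at 0), on a linear axis of its own for each gene. The 3 cKO points sit above the 3 CTRL points for *Grb10*, *Igf2r*, *Ndn*, *Dlk1*, *Meg3* and *Rian*, and overlap with them for *Cdkn1c*, *H19* and *Peg3*. *Igf2* is at 0 in all 6 libraries.

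The comparison asked whether these genes differed between cKO and CTRL LSKs. *Grb10* rose and was the only member abundant enough for the main test (limma on log2(FPKM + 1), for genes averaging 1 FPKM or more), in which 40.5% of 11552 genes were called at an adjusted p under 0.05, with 19.9% of all tested genes higher and 20.6% lower. These are bulk samples, in which a change in the share of cells of a type and a change in RNA per cell cannot be told apart. For the low members, a second test on the recovered reads (voom, limma) took in every gene with at least 10 reads over the 6 libraries, 18035 genes and 9 of the 10 members. In it 5 members were called higher (*Grb10*, *Igf2r*, *Dlk1*, *Meg3* and *Rian*) and 0 lower, beside 32.6% of all genes called, 17.8% as higher and 14.8% as lower. Among the 6501 genes of that test under 1 FPKM, the share called higher was 8.61% and the share called lower 3.32%. *Meg3* and *Rian* passed the minimum of 10 reads mostly through the reads of the cKO libraries, so these counts describe the genes and are not evidence for the list. Limma without a filter on low values called 2 members higher, *Grb10* and *Meg3*, and 0 lower, beside 9.02% of 24337 genes higher and 8.1% lower. At the study's thresholds, over 2-fold (here on the log2(FPKM + 1) scale) and p under 0.05, 2.13% of the 11552 genes passed and *Grb10*, the 1 member tested, did not.

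Without reference to a model, 6 members had all 3 cKO values above all 3 CTRL values, and none had them all below. Of the genes with at least 10 reads, 22.0% were higher without overlap and 21.4% lower, while under 1 FPKM the share was 15.8%, with 8.69% lower. The exact two-sided permutation test over the 6 libraries gives p = 0.1 for each of these 6 genes, which is the smallest p that 3 against 3 libraries allow. The mean was higher in cKO for 8 members and lower for 1. The median log2 change of the 9 tested members was 0.64, beside 0.03 for all 18035 genes and 0.16 for the genes under 1 FPKM, of which 57.9% had a higher mean in cKO. Sparse genes as a group therefore leaned toward the cKO libraries. *Meg3* and *Rian* are among the 6 and the 9 members and passed the minimum of 10 reads mostly through the cKO libraries. These counts and medians of the members describe the genes and are not evidence for the list.

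**Figure D2:**
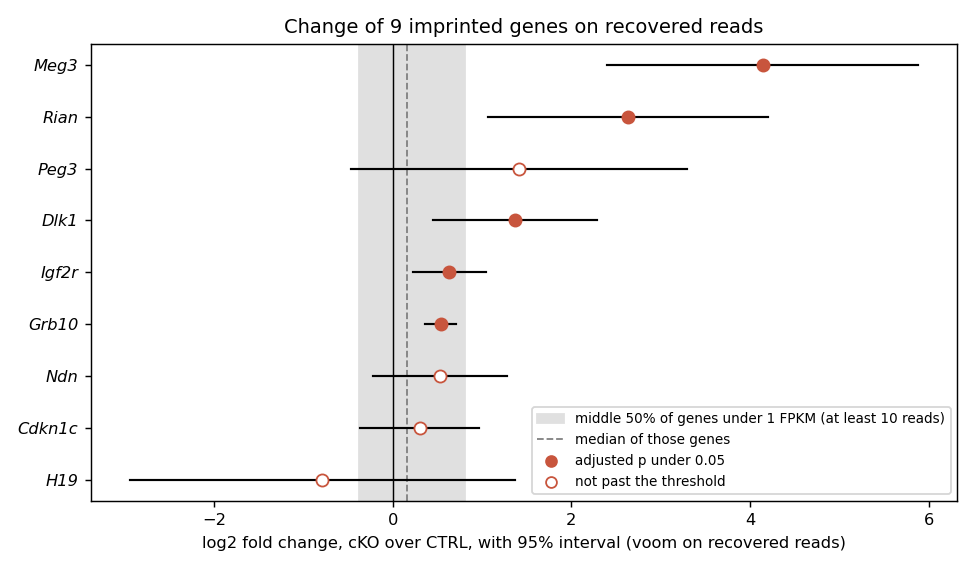
The log2 fold change, cKO over CTRL, of the 9 imprinted genes with at least 10 reads (points) with its 95% interval (lines), from voom on recovered reads. The grey band is the middle 50% of the genes under 1 FPKM, from -0.38 to 0.80, and the dashed line their median, 0.16. *Meg3*, *Rian* and *Dlk1* lie to the right of the band and are past the threshold, while *Grb10* and *Igf2r* are past it inside the band.

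The 3 members in the *Dlk1*-*Dio3* domain on chromosome 12 were all higher in cKO LSKs. *Dlk1*, transcribed from the paternal copy, encodes a transmembrane protein related to the Notch ligands. *Meg3* and *Rian*, transcribed from the maternal copy, are long noncoding RNAs, and *Rian* is the host of many small nucleolar RNAs and microRNAs. All 3 lie on the plus strand, *Dlk1* at chr12:109452823-109463336, *Meg3* at chr12:109541001-109571726 and *Rian* at chr12:109603940-109661716 (GRCm38, as in the deposited table).

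The promoters of these 3 genes, taken as windows around annotated starts, are shown because they differ in content of CG, the dinucleotide at which imprints are methylated. Whether *Rian* is transcribed from its own start was not examined. Sequences are from RefSeq on GRCm38.p6, plus strand, 5′ to 3′, 300 bases around the start of transcription, most of them before it, with each CG in capitals. They lie at chr12:109452573-109452872 for *Dlk1*, chr12:109540746-109541045 for the first promoter of *Meg3* and chr12:109603695-109603994 for *Rian*.
Dlk1: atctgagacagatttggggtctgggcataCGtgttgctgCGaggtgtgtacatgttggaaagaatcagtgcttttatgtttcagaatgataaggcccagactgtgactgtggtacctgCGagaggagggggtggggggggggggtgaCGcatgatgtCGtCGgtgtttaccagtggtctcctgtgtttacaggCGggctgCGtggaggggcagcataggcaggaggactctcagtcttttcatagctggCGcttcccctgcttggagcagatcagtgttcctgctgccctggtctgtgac
Meg3: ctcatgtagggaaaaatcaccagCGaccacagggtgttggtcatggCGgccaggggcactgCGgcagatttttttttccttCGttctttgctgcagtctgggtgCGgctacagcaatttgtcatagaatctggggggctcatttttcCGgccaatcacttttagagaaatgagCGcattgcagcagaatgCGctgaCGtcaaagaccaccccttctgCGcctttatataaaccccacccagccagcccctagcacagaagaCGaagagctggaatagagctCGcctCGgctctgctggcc
Rian: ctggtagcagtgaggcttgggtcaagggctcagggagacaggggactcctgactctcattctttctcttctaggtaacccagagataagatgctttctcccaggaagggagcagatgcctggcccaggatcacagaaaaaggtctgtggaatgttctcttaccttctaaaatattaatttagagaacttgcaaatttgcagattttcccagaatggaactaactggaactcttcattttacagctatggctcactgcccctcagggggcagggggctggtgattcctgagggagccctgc
The *Dlk1* window held 9 CG, that of *Meg3* 13 and that of *Rian* 0, beside a median of 7 over the 32851 promoters of the RefSeq table. RefSeq gives *Meg3* a second promoter, with 1 CG. Of the members, 8 had an entry, with 13 promoters in all. TGCCGC, the hexamer that the imprint-keeping protein ZFP57 binds when it is methylated, was searched on both strands and found in 3 of the 13 and in 11.6% of all promoters. TGACGTCA, the full cAMP response element, is the same on both strands and was found in 2 of the 13 and in 1.79% of all. The first *Meg3* promoter held both without overlap, TGCCGC on the opposite strand 190 bases before the start and TGACGTCA 57 bases before it. The *Dlk1* and *Rian* windows held neither. These are letter matches, and no binding or methylation was measured here.

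*Meg3* was nearly absent from control LSKs, with 1, 0 and 3 reads in the 3 libraries. In cKO LSKs it had 23, 26 and 22 reads. Its lowest cKO library thus stood well above its highest CTRL library. The mean rose from 0.00381 ± 0.00441 to 0.0707 ± 0.00716 FPKM (SD, n = 3), a ratio of pooled reads of 18.1 with an exact 95% interval of 6.77 to 68.3. Intervals on reads pool the 3 libraries of a group and leave out the spread between them, so they cover at most counting error. By voom, the log2 change was 4.14 (SE 0.84, adjusted p = 0.000463). Leaving out 1 library at a time moved it from 3.50 (without CTRL 2) to 4.80 (without CTRL 3), with adjusted p of 0.000979 to 0.00551. Even so, its level in cKO LSKs remained far under that of *Grb10*.

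*Rian* followed the same pattern at lower read numbers, with 1, 4 and 1 reads in CTRL and 13, 10 and 14 in cKO libraries. The groups did not overlap. The mean rose from 0.00602 ± 0.00557 to 0.0365 ± 0.00576 FPKM (n = 3), a read ratio of 6.29 (95% interval 2.63 to 18.2), and voom gave a log2 change of 2.63 (SE 0.76, adjusted p = 0.00924). Without CTRL 1 the adjusted p was 0.0526 (log2 change 2.34), and without CTRL 2 the change was 3.19 (adjusted p = 0.0228).

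*Dlk1* had 16, 6 and 13 reads in CTRL and 20, 29 and 39 in cKO libraries, again without overlap, although the highest CTRL and the lowest cKO library were close. The mean rose from 0.107 ± 0.0424 to 0.280 ± 0.0909 FPKM (n = 3), a read ratio of 2.57 (95% interval 1.72 to 3.91). Voom gave a log2 change of 1.37 (SE 0.44, adjusted p = 0.0196). This call was lost with some single libraries left out. The voom adjusted p was 0.0991 without CTRL 2 (log2 change 1.05), 0.0505 without CTRL 3 (1.47) and 0.0763 without cKO 3 (1.14).

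Few other genes of the domain had reads. From *Dlk1* to *Dio3*, over 828.3 kb, the table lists 118 genes, among them 67 microRNAs and 23 small nucleolar RNAs, and 7 genes had any read. None of the microRNAs or small nucleolar RNAs had one, including the 4 microRNAs and 13 small nucleolar RNAs inside *Rian*, but the labels name no library for small RNAs. *Rtl1*, a paternally expressed gene derived from a retrotransposon, had 1 read in 1 cKO library and 0 in the others. *Mirg*, the noncoding RNA downstream of *Rian*, had 1 read in each of 2 cKO libraries and 0 in the others. *Gm34081*, on the minus strand between *Dlk1* and *Meg3*, had 3, 5 and 0 reads in CTRL and 0, 3 and 1 in cKO libraries. The pseudogene *Gm3379* had the most reads of the domain, 56, 60 and 58 in CTRL against 49, 59 and 56 in cKO libraries, and its groups overlapped. Among genes of the domain with more than 2 reads, the rise was therefore seen at *Dlk1*, *Meg3* and *Rian*, and not at *Gm34081* or *Gm3379*.

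**Figure D3:**
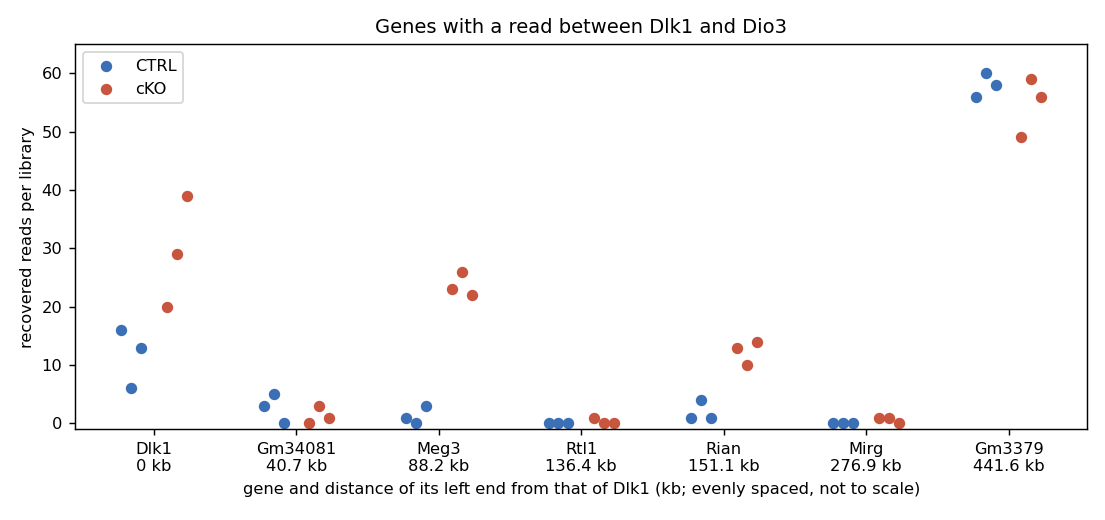
Recovered reads in each of the 3 CTRL and 3 cKO libraries for the 7 genes with a read between *Dlk1* and *Dio3*, in the order of the chromosome. Distances are in kb from the left end of *Dlk1*, and the genes are evenly spaced rather than drawn to scale. The cKO points lie above the CTRL points at *Dlk1*, *Meg3* and *Rian*, while *Gm3379* has 49 to 60 reads in all 6 libraries.

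The growth factor genes gave a mixed picture, with *Grb10* and *Igf2r* higher in cKO LSKs and *Igf2* and *H19* at the floor. *Grb10* (ENSMUSG00000020176, chr11:11930508-12038683, minus strand) was 2.21, 2.05 and 2.18 FPKM in CTRL and 2.79, 3.32 and 3.16 FPKM in cKO libraries. The groups did not overlap. The mean rose from 2.15 ± 0.0872 to 3.09 ± 0.272 FPKM (n = 3), a read ratio of 1.44 (95% interval 1.33 to 1.55). On the log2(FPKM + 1) scale, which understates changes of low genes, the change was 0.38 (SE 0.07, 95% interval 0.21 to 0.54, limma adjusted p = 0.00591). It kept an adjusted p under 0.05 in each of 17 other settings, with changes of 0.34 to 0.54.

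*Grb10* has a promoter used from the maternal copy in most tissues and another used from the paternal copy in neurons. RefSeq lists 2 starts, and the windows around them, minus strand of GRCm38.p6, are printed because their CG content differs. They lie at chr11:12037371-12037670 (start 1) and chr11:12027922-12028221 (start 2), again with each CG in capitals.
Grb10 start 1: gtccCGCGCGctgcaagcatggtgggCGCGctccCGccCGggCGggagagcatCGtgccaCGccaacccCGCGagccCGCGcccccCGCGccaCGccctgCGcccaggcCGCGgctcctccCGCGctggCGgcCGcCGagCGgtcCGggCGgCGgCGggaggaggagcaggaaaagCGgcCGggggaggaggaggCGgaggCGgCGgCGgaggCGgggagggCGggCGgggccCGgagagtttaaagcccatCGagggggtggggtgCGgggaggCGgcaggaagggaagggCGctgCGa
Grb10 start 2: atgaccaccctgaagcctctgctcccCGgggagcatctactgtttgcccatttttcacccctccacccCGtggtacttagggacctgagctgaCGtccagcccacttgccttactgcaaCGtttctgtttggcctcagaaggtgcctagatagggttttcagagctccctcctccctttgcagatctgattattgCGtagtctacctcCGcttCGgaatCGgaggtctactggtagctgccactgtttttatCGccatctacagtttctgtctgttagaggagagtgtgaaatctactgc
The window of start 1 held 45 CG, which put it at percentile 98.1 of all promoters, and that of start 2 held 9, at percentile 54.2. TGCCGC was found at start 1, on the opposite strand and 24 bases after the start. The table gives 1 value for the whole gene, so it does not say which start the additional reads came from, and which start is the neuronal one was not examined.

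The genes whose level followed *Grb10* most closely over the 6 libraries, among 7169 genes averaging 5 FPKM or more, were *Mrpl55* (Pearson r = 0.998), a protein of the mitochondrial ribosome, and *Utp4* (r = 0.996), a factor in the assembly of the small ribosomal subunit. As many as 327 genes had an r above 0.95 over these libraries, which form 2 groups of 3, so the likeness is a description with no test.

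*Igf2r* (chr17:12682406-12769664, minus strand), which binds IGF2 and carries it and lysosomal enzymes to the lysosome, had 78, 55 and 68 reads in CTRL and 119, 104 and 82 in cKO libraries. The lowest cKO value, 0.473 FPKM, was above the highest CTRL value, 0.421 FPKM. The mean rose from 0.379 ± 0.0431 to 0.590 ± 0.107 FPKM (n = 3), a read ratio of 1.55 (95% interval 1.29 to 1.86), and voom gave a log2 change of 0.64 (SE 0.20, adjusted p = 0.015). The adjusted p was 0.0629 without CTRL 2 and 0.0761 without cKO 1. *Airn*, the paternally expressed noncoding RNA that runs antisense through *Igf2r*, had 3, 4 and 0 reads in CTRL and 7, 4 and 7 in cKO libraries (voom adjusted p = 0.149). The counting is not stated to use strand, so reads of the 2 genes cannot be told apart where they overlap.

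*Igf2* (chr7:142650766-142666816, minus strand), the paternally expressed growth factor, had 0 reads in all 6 libraries. At 3 reads a library, this allows a level of up to 0.0297 FPKM in CTRL and 0.0287 FPKM in cKO LSKs. The gene shares its span with *Gm49394* on the same strand and with *Mir483* and *Igf2os*, which also had 0 reads, and how reads in shared exons were counted is not stated. *H19* (chr7:142575529-142578143, minus strand), the maternally expressed noncoding RNA that shares a control region with *Igf2*, had 9, 1 and 2 reads in CTRL and 2, 5 and 0 in cKO libraries. The groups overlapped and the values scattered around the floor (0.0831 ± 0.0879 against 0.0516 ± 0.0562 FPKM, n = 3). The read ratio was 0.595 with a 95% interval of 0.199 to 1.64, and the voom change of -0.79 (adjusted p = 0.621) turned to 0.18 without cKO 3. No difference of *H19* was detectable at this depth, and its microRNA *Mir675* had 0 reads.

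*Cdkn1c* (chr7:143458339-143461050, minus strand) had the second highest mean per length in both groups. It had 29, 20 and 34 reads in CTRL and 43, 35 and 23 in cKO libraries, so that cKO 3 fell among the CTRL libraries. The means were 0.714 ± 0.156 and 0.891 ± 0.264 FPKM (n = 3), with a read ratio of 1.24 (95% interval 0.919 to 1.68). Voom gave a log2 change of 0.30 with a 95% interval of -0.37 to 0.97 (adjusted p = 0.529), and the exact permutation test gave p = 0.4. The related inhibitors stood at higher levels and fell: *Cdkn1a* (p21) from 13.1 ± 1.33 to 8.64 ± 0.690 FPKM (log2 change -0.55, limma adjusted p = 0.00265) and *Cdkn1b* (p27) from 13.2 ± 0.115 to 10.6 ± 0.803 FPKM (log2 change -0.29, limma adjusted p = 0.00636).

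*Ndn* and *Peg3* are paternally expressed. *Ndn* (chr7:62346569-62350262, plus strand) encodes necdin, a MAGE family protein that restrains growth, and had 19, 17 and 17 reads in CTRL and 29, 18 and 29 in cKO libraries. Its values did not overlap only by a narrow margin, 0.267 FPKM in cKO 2 against 0.261 FPKM in CTRL 2. The means were 0.253 ± 0.0117 and 0.369 ± 0.0885 FPKM (n = 3), with a read ratio of 1.46 (95% interval 1.02 to 2.12) and a voom log2 change of 0.53 (95% interval -0.22 to 1.27, adjusted p = 0.293). *Peg3* (chr7:6703892-6730431, minus strand) encodes a zinc finger protein and had 2, 0 and 6 reads in CTRL and 7, 4 and 4 in cKO libraries. The groups overlapped, the read ratio was 1.91 (95% interval 0.761 to 5.21), and the voom log2 change of 1.41 had a 95% interval of -0.47 to 3.30 (adjusted p = 0.262).

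Genes around the members were described with 6 lists. Of 45 genes in the imprinted domains of the members, 15 were tested and 7 rose while 1 fell, beside 19.9% of all 11552 genes higher and 20.6% lower. Their median log2 change was 0.12, beside -0.01 for all 11552 genes. *Phlda2*, a maternally expressed growth restrainer near *Cdkn1c*, rose from 1.42 ± 0.269 to 3.35 ± 0.472 FPKM (log2 change 0.85, limma adjusted p = 0.00158), with 27, 26 and 37 reads in CTRL and 81, 67 and 61 in cKO libraries. *Lsp1*, a leukocyte actin-binding protein, rose from 17.9 ± 1.40 to 26.8 ± 1.12 FPKM (log2 change 0.56, limma adjusted p = 0.000713), and the tetraspanin *Cd81* from 39.4 ± 1.00 to 53.6 ± 2.96 FPKM (log2 change 0.43, limma adjusted p = 0.000559). *Atp10a*, a phospholipid transporter near *Ndn*, fell from 8.29 ± 0.294 to 6.80 ± 0.523 FPKM (log2 change -0.25, limma adjusted p = 0.0141), a call that was lost without CTRL 1. The 7 genes that rose are on chromosome 7, near *Cdkn1c* and *H19*, except *Slc22a3*, which lies near *Igf2r* on chromosome 17. Of the listed genes, 14 were at 0 in all libraries.

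Of 16 tested imprinted genes of other domains, 2 rose (*Pon2*, log2 change 0.32, and *Peg13*, 0.31) and 3 fell (*Gab1*, -0.26, *Zrsr1*, -0.25, and *Copg2*, -0.17), with a median of -0.02. Of all tested genes, 19.9% were called higher and 20.6% lower, so neither count is above the share over all genes. The 3 falls were close to the threshold, and leaving out 1 library left 0 or 1 of them.

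Among 12 tested genes of IGF and insulin signalling, 6 fell and 1 rose (median log2 change -0.14), beside 20.6% of all tested genes lower and 19.9% higher. With 1 library left out, 3 to 5 fell. *Igfbp4*, a secreted protein that binds IGFs, fell from 173 ± 1.08 to 113 ± 4.23 FPKM (log2 change -0.61, limma adjusted p = 3.45e-05). *Irs2*, a substrate of the insulin and IGF1 receptors, fell from 1.53 ± 0.264 to 0.803 ± 0.120 FPKM (log2 change -0.48, limma adjusted p = 0.0113), and the transcription factor *Foxo3* from 10.4 ± 0.344 to 8.23 ± 0.217 FPKM (log2 change -0.30, limma adjusted p = 0.0018). The kinase *Akt1* rose by 0.08 on the log2 scale, a call that was lost with CTRL 1, CTRL 2, CTRL 3, cKO 1 or cKO 2 left out. *Igf1r*, the receptor that *Grb10* binds, had means of 2.71 FPKM in CTRL and 2.68 FPKM in cKO LSKs (log2 change -0.01, limma adjusted p = 0.864).

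Of 18 tested genes that set or keep DNA methylation and silencing at imprints, 9 fell and 2 rose (median log2 change -0.15). Of all tested genes, 20.6% were called lower and 19.9% higher. The maintenance methyltransferase *Dnmt1* fell from 50.8 ± 0.551 to 39.2 ± 1.18 FPKM (log2 change -0.37, limma adjusted p = 0.000243), its partner *Uhrf1* from 59.3 ± 0.654 to 49.4 ± 1.37 FPKM (-0.26) and the de novo methyltransferase *Dnmt3a* from 4.48 ± 0.261 to 3.57 ± 0.319 FPKM (-0.26). The other de novo methyltransferase, *Dnmt3b*, rose from 11.0 ± 0.442 to 15.8 ± 0.248 FPKM (log2 change 0.49, limma adjusted p = 0.000207), and the Polycomb subunit *Eed* rose by 0.19. Removing the trend with gene length from each library left 5 falls and 4 rises.

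Relatives of the members split, with 3 of 7 tested lower and 1 higher (median log2 change -0.06), beside 20.6% of all tested genes lower and 19.9% higher by limma. Beside *Cdkn1a* and *Cdkn1b*, *M6pr*, the other mannose 6-phosphate receptor, fell from 78.4 ± 1.28 to 68.2 ± 0.645 FPKM (log2 change -0.20), opposite to *Igf2r*. *Maged1*, a relative of *Ndn*, rose from 1.87 ± 0.0803 to 3.01 ± 0.198 FPKM (log2 change 0.48, limma adjusted p = 0.00168). HSC-enriched genes leaned upward, with 6 of 9 tested higher and 0 lower by limma (median log2 change 0.20) and 10 of 15 higher by voom, beside 17.8% of all genes. Those that rose included *Procr* (log2 change 0.67), the endothelial protein C receptor, and the adhesion molecule *Esam* (0.61). In the other direction, *Tek* (read ratio 0.827, lower in every cKO library without overlap, voom adjusted p = 0.319) and *Hoxb5* (0.138 against 0.0778 FPKM, adjusted p = 0.414) had lower means in cKO and were not called. These 2 genes were chosen after their values were seen.

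**Figure D4:**
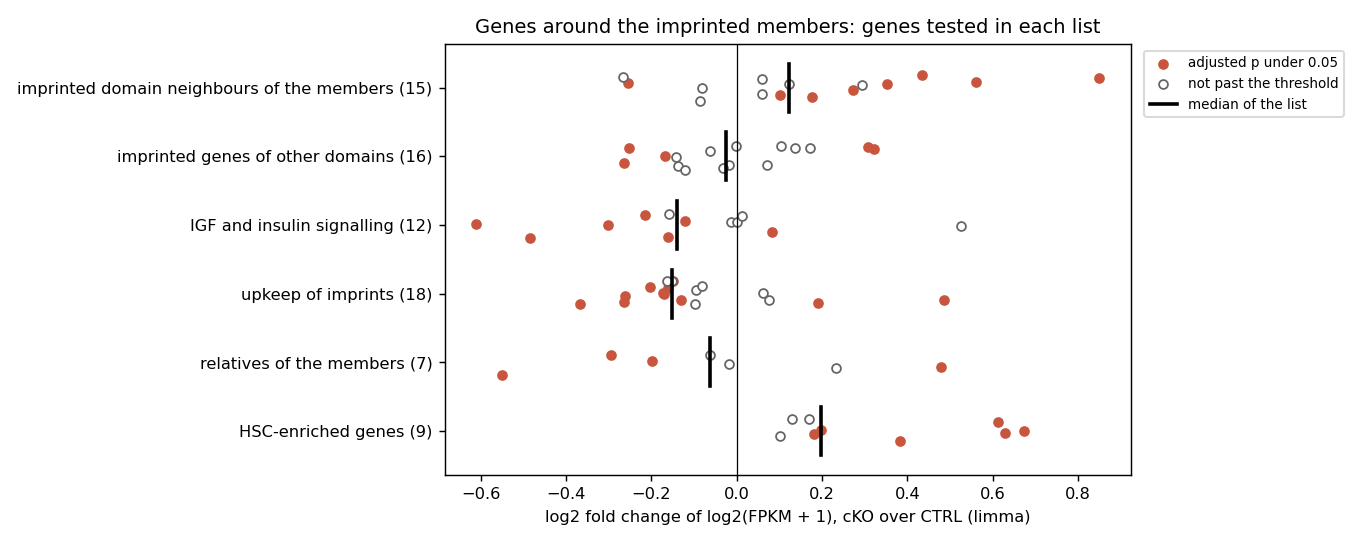
The log2 fold change of log2(FPKM + 1), cKO over CTRL, for each tested gene of the 6 lists (points, filled where the limma adjusted p was under 0.05), with the number tested in parentheses and the median of each list as a bar. The medians of domain neighbours (0.12) and HSC-enriched genes (0.20) lie right of 0 and those of IGF and insulin signalling (-0.14) and upkeep of imprints (-0.15) left of it.

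Markers of other cells moved between the groups and are given because several members are made by cells other than HSCs. Counts of called markers stand beside 19.9% of all tested genes higher and 20.6% lower by limma, and 17.8% and 14.8% by voom. The sorted markers *Kit* (23.9 against 21.5 FPKM) and *Ly6a* (95.4 against 89.5 FPKM) were present in both groups and lower in every cKO library, with *Kit* called lower (log2 change -0.14, limma adjusted p = 0.0105) and *Ly6a* not (-0.09, adjusted p = 0.0833). The erythroid list rose for 9 of 9 tested genes, with its summed level at 557 to 564 FPKM in CTRL and 986 to 1027 FPKM in cKO libraries, led by *Car1* and *Car2*. The megakaryocyte list rose for 4 of 4 tested (59.4 to 63.2 against 129 to 134 FPKM, led by *Pf4* and *Itga2b*), and the mast cell and basophil list for 5 of 6 (90.3 to 102 against 149 to 159 FPKM, led by *Cpa3* and *Mcpt8*). The neutrophil and monocyte list fell for 5 of 6 (6835 to 6902 against 3583 to 3653 FPKM, led by *Mpo* and *Elane*).

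Of the B and plasma cell list, 3 of 5 tested genes rose and 1 fell (68.3 to 73.2 against 104 to 109 FPKM). The T and NK cell list had a summed level of 350 to 360 FPKM in CTRL and 279 to 286 FPKM in cKO libraries. Its 1 tested gene, *Nkg7*, fell, while voom called 4 of 6 higher and 1 lower. Among these, *Cd3e* had 0 reads in all CTRL libraries and 14, 21 and 18 in cKO libraries. *Cd3e* passed the minimum of 10 reads only through the cKO libraries and was chosen after its values were seen. Of 3 progenitor markers, 1 rose and 0 fell. Stromal cells of the marrow are a known source of *Dlk1*, *H19* and *Meg3*. Of their 10 markers, 1 was tested and it was not called, the summed level was 5.68 to 6.67 FPKM in CTRL and 6.45 to 7.04 FPKM in cKO libraries, and *Pdgfra* was at 0 in all. On recovered reads, 2 stromal markers were called higher: *Col1a2*, with 25, 14 and 19 against 57, 25 and 45 reads, and *Col1a1*, with 0, 1 and 0 against 5, 3 and 6 reads. *Col1a1* passed the minimum of 10 reads mostly through the cKO libraries. *Cxcl12* had 1, 14 and 8 against 9, 19 and 12 reads, with overlap. The endothelial list fell for 2 of 2 tested genes (23.7 to 24.7 against 14.9 to 16.7 FPKM), while voom called 2 of 7 lower and 1 higher. The part of these cells in the values of *Dlk1*, *Meg3* and *Rian* was not tested.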

How the data were processed

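LSK cells of 3 CTRL and 3 cKO libraries were profiled by RNA-seq. The authors deposited FPKM values for 54532 genes, with gene lengths. The submitters' processing notes name HISAT2 2.0.5 and the mm10 genome. The counting program and its use of strand are not given in the sources used here. FPKM times length was a whole multiple of 1 step in each library for 100% of values (tolerance 0.01 read), which gave the reads behind each value.

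The main test was limma 3.58.1 (R 4.3.3) with a trend on log2(FPKM + 1), two-sided, for genes averaging 1 FPKM or more, with Benjamini-Hochberg adjustment over 11552 genes. Voom with limma on recovered reads, for genes with at least 10 reads, was added after seeing that 9 members were under 1 FPKM. Read ratios pool the 3 libraries of a group and are scaled to library size, with exact conditional intervals. On data simulated with a fixed spread and 200 changed genes, voom was run on the genes under 1 FPKM alone. It called 42.4% of those changed by 2 on the log2 scale and 19.4% of those changed by 1. The test used here adjusted over 18035 genes, so these shares do not give its sensitivity.

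All members were named. Of each list, up to 3 called genes with the largest rise and 3 with the largest fall were named, with the 2 most abundant genes of marker lists, genes overlapping a member, *Myh9* and the 2 genes most like *Grb10*. Genes of the *Dlk1*-*Dio3* domain and other genes outside this rule were named after their values were seen, and some listed genes are not reported here. Members and lists were chosen with earlier results of these data known. Alternatives were other pseudocounts, filters, scalings, moderation without a trend, removal of the trend with gene length, a replicate block, each library left out, and the study's thresholds (over 2-fold, p under 0.05 before adjustment). Same-numbered libraries did not deviate together (r of -0.0262 to -0.0046), so the numbers were not taken as pairs.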

Additional observations from a re-analysis of the deposited data

How the results depend on the processing

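*Grb10* was called higher in all of its 17 other settings (adjusted p of 2.57e-05 to 0.0236), among them the replicate block (log2 change 0.38, adjusted p = 0.0236) and each library left out (0.34 to 0.43). With the replicate block the members called on recovered reads stayed under an adjusted p of 0.05, with changes of 3.88 for *Meg3*, 2.46 for *Rian*, 1.35 for *Dlk1* and 0.65 for *Igf2r*. Without a filter on low values, limma gave changes of 0.20 for *Igf2r*, 0.043 for *Rian* and 0.21 for *Dlk1*, and with a pseudocount of 0.1 and at least 10 reads 0.52, 0.36 and 0.87, none past the threshold. A pseudocount of 1 is large beside these levels.

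Members called higher numbered 2 without a filter and with a pseudocount of 0.1 and at least 10 reads, 5 by voom on at least 10 reads, and 0 among genes averaging 5 FPKM or more, where none was tested, or at the study's thresholds (over 2-fold on the log2(FPKM + 1) scale), where *Grb10* alone was tested. At these, 165 genes were higher and 81 lower, and 0 of each list, although *Phlda2* has a read ratio of 2.37, since the pseudocount lowers the fold of low genes. With 1 library left out, changes on recovered reads ranged from 3.50 to 4.80 for *Meg3*, 2.34 to 3.19 for *Rian*, 1.05 to 1.63 for *Dlk1* and 0.52 to 0.79 for *Igf2r*. They ranged from 0.11 to 0.56 for *Cdkn1c*, 0.42 to 0.74 for *Ndn*, 0.51 to 2.24 for *Peg3* and -1.56 to 0.18 for *H19* (0.18 without cKO 3). In the main test with 1 library left out, the change of *Myh9* ranged from -0.31 to -0.22. All genes called in that test then numbered 1784 to 2043 higher and 1758 to 2065 lower.

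Domain neighbours lower were 2 by voom on recovered reads and 0 to 1 with a library left out. Imprinted genes of other domains lower were 0 without a filter and with the trend with length removed, 1 among genes averaging 5 FPKM or more, by the median of ratios and with the block, and 0 to 1 with a library left out. IGF and insulin genes higher were 0 after quantile normalization, TPM scaling, no trend in the moderation or the block, and 0 to 1 with a library left out, and those lower 3 to 5. Upkeep genes higher were 1 without a filter, 4 with the trend with length removed and 1 to 2 with a library left out, and those lower 5 with the trend removed. Relatives higher were 0 among genes averaging 5 FPKM or more and 1 to 2 with a library left out, and HSC-enriched genes higher were 3 at that mean. The cause of these shifts was not tested. Depth limits the low members: for *Meg3* the floor of 3 reads is 0.00834 to 0.00941 FPKM in the CTRL libraries, of which 1 had 3 reads and the others fewer.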

Other observations

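Some other imprinted genes had as few reads as the low members, and the values of 4 are given here. The choice was made with their values in view. Of the 4, only *Snrpn* was called by voom. It passed the minimum number of reads for that test mostly through the cKO libraries, so its adjusted p is given as a description. *Snrpn*, a paternally expressed spliceosome gene of the domain that holds *Ndn*, had 0, 2 and 1 reads in CTRL and 7, 12 and 20 reads in cKO libraries, without overlap (voom log2 change 3.41, adjusted p = 0.00761). *Snurf*, which shares the *Snrpn* transcript, was at 0 in all libraries, and how reads were divided between the 2 genes is not stated.

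*Plagl1*, a paternally expressed zinc finger gene that regulates other imprinted genes, had 1, 2 and 3 reads in CTRL and 0 in all cKO libraries, too few for the test on at least 10 reads. *Asb4* had 6, 3 and 5 reads in CTRL and 2, 0 and 1 in cKO libraries, without overlap (voom adjusted p = 0.128). *Nespas*, the antisense RNA of the *Gnas* domain, had 12, 6 and 9 reads in CTRL and 29, 10 and 19 in cKO libraries, and its groups overlapped (voom adjusted p = 0.133).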
